A study of Mus musculus with 10 samples.

Results

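The 4 mouse Hox clusters were examined for RNA polymerase II (Pol II) by chromatin immunoprecipitation sequencing (ChIP-seq), in which DNA bound by a protein is recovered with an antibody and sequenced. Members are the Pol II peaks that overlap 1 of 4 fixed windows on the mm9 build by at least 1 bp. The windows are HoxA at chr6:52100000-52270000, HoxB at chr11:96040000-96240000, HoxC at chr15:102740000-102880000 and HoxD at chr2:74490000-74610000. They held 13 of the 32345 Pol II peaks of embryonic stem (ES) cells and 13 of the 13306 Pol II peaks of primary mouse embryonic fibroblasts (MEFs), so 26 of 45651 peaks in all.

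The series holds 10 libraries. Each cell type has 1 library for Pol II, 3 for subunits of RNA polymerase III (Pol III), named POLR3C, POLR3G and POLR3GL, and 1 input. The ES cells were ES-E14TG2a, an established line grown on gelatin with serum and the cytokine LIF, and carried no treatment. The MEFs were isolated from E12.5 embryos, grown with serum and without LIF, passaged 3 to 5 times and likewise untreated. The sources used here do not give the strain of the embryos, their number, whether they were pooled or the part of the body used. Both cell types were fixed at 80% confluence. The Pol II antibody was N-20 in both, which is directed at the N-terminal end of the largest Pol II subunit. With 1 library per cell type there is no replicate error, and the read depth behind each list is unknown. No difference below was therefore tested, and a missing peak does not show that Pol II was absent. In such bulk samples, fewer cells with Pol II at a site and less Pol II per cell cannot be told apart. The cell type labels could not be checked against marker genes, because a gene annotation of mm9 was not used here.

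Hox genes encode homeodomain transcription factors that give cells their identity along the head-to-tail axis of the embryo. The genes of a cluster lie in a row in the order in which they are used along that axis, with the Hox13 genes acting nearest the tail. In ES cells the clusters are known as Polycomb-covered domains with little transcription, and fibroblasts are known to keep a Hox expression pattern that reflects where in the body they came from. The clusters hold 39 Hox genes, 11 in HoxA, 10 in HoxB, 9 in HoxC and 9 in HoxD. In the RefSeq gene table, which is for the GRCm38.p6 build and was used for gene order only, HoxA ends at high coordinates with Hoxa13 and Evx1. The other clusters run the opposite way, from Hoxb13 to Hoxb1, from Hoxc13 to Hoxc4, and from Evx2 and Hoxd13 to Hoxd1. Evx1 and Evx2 are homeobox genes that neighbour the Hox13 genes. No single gene, exon, intron or UTR was assigned to a peak.

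Besides the homeobox genes, the clusters hold miRNA genes, which Pol II also transcribes. Their mature sequences are shown because the same seeds (bases 2 to 8, in capitals) recur across the 4 clusters. The sequences are those of RefSeq with the GRCm38.p6 build, written 5′ to 3′.
miR-196b-5p (Mir196b, HoxA): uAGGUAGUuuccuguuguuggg
miR-196a-5p (Mir196a-1, HoxB, and Mir196a-2, HoxC): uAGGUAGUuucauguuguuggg
miR-10a-5p (Mir10a, HoxB): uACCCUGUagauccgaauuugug
miR-10b-5p (Mir10b, HoxD): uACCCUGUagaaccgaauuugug
The miR-196 seed thus occurs in HoxA, HoxB and HoxC, and the miR-10 seed in HoxB and HoxD. HoxC also holds Mir615, whose 5p arm has another seed. As with the Hox genes, no peak was assigned to a miRNA gene.

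The 2 cell types had most of their Hox Pol II peaks in different clusters, ES cells in HoxB and MEFs in HoxA. ES cells had 1 peak in HoxA, 9 in HoxB, 3 in HoxC and 0 in HoxD. MEFs had 8 peaks in HoxA, 1 in HoxB, 1 in HoxC and 3 in HoxD. HoxA and HoxD thus held more MEF peaks, and HoxB and HoxC more ES peaks. The direction in HoxC turned (ES minus MEF of -1 peak and -724 bp) when the ES list was cut to its 13306 highest scores, the length of the MEF list. The covered bases of HoxA turned to 6387 bp more in ES cells with the windows widened by 50 kb on each side. In the windows as given, the bases covered by peaks had the same directions as the peak numbers. In ES cells they came to 1775 bp of HoxA (1.04%), 12187 bp of HoxB (6.09%), 2253 bp of HoxC (1.61%) and 0 bp of HoxD. In MEFs they came to 9819 bp of HoxA (5.78%), 496 bp of HoxB (0.248%), 724 bp of HoxC (0.517%) and 3788 bp of HoxD (3.16%). Summed over the 630 kb of the windows, coverage was 2.57% or 16215 bp for the ES list and 2.35% or 14827 bp for the MEF list. The whole ES list is 2.43 times as long as the MEF list. At equal length the ES sums were 5 peaks and 9590 bp, and with the widened windows they were 20 peaks and 31377 bp, while the MEF sums stayed at 13 peaks and 14827 bp. Bases covered in both cell types were 6.06% of all bases covered in the windows, against 17.5% over the whole lists.

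**Figure D1:**
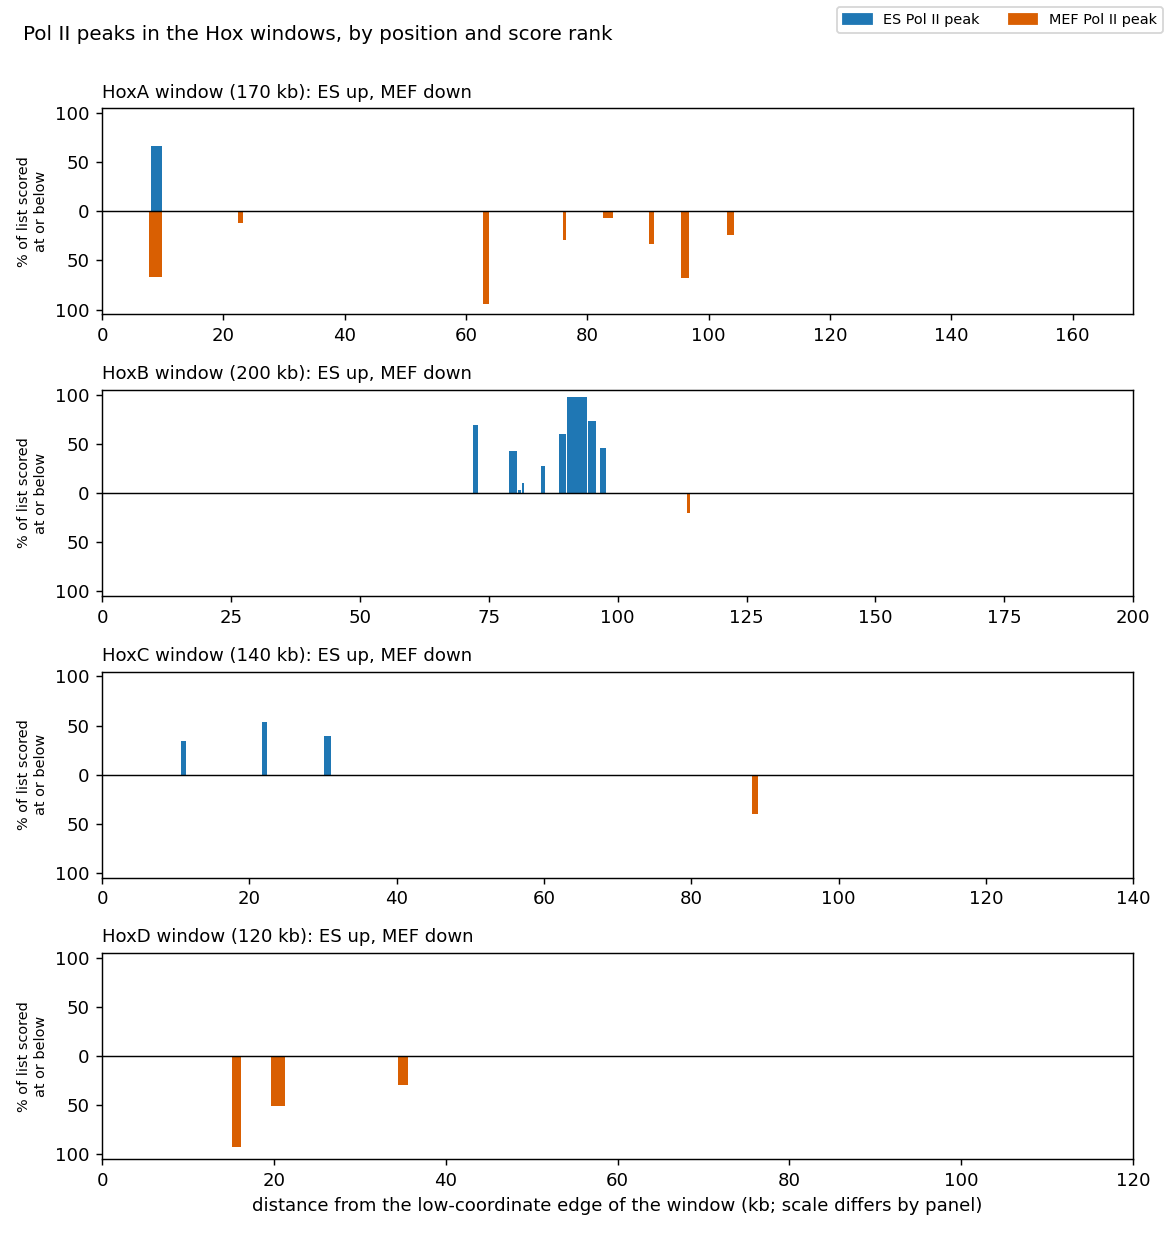
Each rectangle is 1 Pol II peak, drawn to scale against the distance in kb from the low-coordinate edge of its window; ES peaks point up and MEF peaks down, and the height is the percentage of peaks of the same list with the same or a lower score. The 9 ES peaks of HoxB lie side by side within 25.7 kb, the 8 MEF peaks of HoxA are spread over 96.5 kb, and 1 place in HoxA carries a peak of both cell types.

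Tiling the autosomes and chromosome X with windows of the same length gave the background for these numbers. The tiles hold few peaks, with a median of 0 in both lists at every tile length. At least 8 MEF peaks, as in HoxA, occurred in 0.420% of 15494 tiles of 170 kb, and in 0.914% of the 7111 tiles with a peak in either list. At least 3 MEF peaks, as in HoxD, occurred in 7.73% of 21952 tiles of 120 kb (19.3% of those with a peak). At least 9 ES peaks, as in HoxB, occurred in 9.89% of 13168 tiles of 200 kb (20.3% of those with a peak), and at least 3 ES peaks, as in HoxC, in 19.4% of 18814 tiles of 140 kb (45.8%). By covered bases, 1.81% of tiles reached the MEF value of HoxA and 7.16% that of HoxD, while 9.33% reached the ES value of HoxB and 20.4% that of HoxC. HoxA was therefore among the tiles richest in MEF peaks, while HoxB and HoxC were less far from the rest of the genome for ES peaks. A single ES peak, as in HoxA, or more was found in 39.5% of the tiles of its length, and no ES peak, as in HoxD, in 66.2%. For MEFs, 1 peak or more occurred in 40.2% of the tiles of HoxB length and 33.6% of those of HoxC length.

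ES minus MEF peaks was -7 in HoxA, and 0.0581% of the tiles (9 of 15494) had a difference of -7 or below. In HoxD it was -3, reached by 0.879% of the tiles. The difference of 8 in HoxB was reached or passed by 7.09% of the tiles, and that of 2 in HoxC by 17.9%. The ES list is longer, and an excess of MEF peaks was the rarer direction. More MEF than ES peaks at all, as in HoxA and HoxD, was found in 9.99% and 8.95% of the tiles of their lengths. At equal list length, chosen as an alternative after seeing the data, these shares were 19.7% and 16.8%. The differences were then -7 in HoxA, 3 in HoxB, -1 in HoxC and -3 in HoxD, and 0.0839%, 4.88%, 18.1% and 1.96% of the tiles reached them. With the windows widened by 50 kb on each side, the difference in HoxA was -1. Tiles with many MEF peaks usually had many ES peaks too. The 65 tiles with at least 8 MEF peaks held a median of 15 ES peaks, and 6.15% of them held at most 1, as HoxA did. The 1696 tiles with at least 3 MEF peaks had a median of 6 ES peaks, and 7.72% of them had none, as in HoxD. The reverse was more common, since 14.6% of the 1302 tiles with at least 9 ES peaks held at most 1 MEF peak, as HoxB did, and 34.7% of the 3658 tiles with at least 3 ES peaks did so, as in HoxC. These shares describe the lists and are not tests. The shares for the differences count all tiles, also those without a peak, and would be larger over the tiles with a peak alone. Tiles with a peak in either list were 7111 of 15494 at HoxA length and 6418 of 13168 at HoxB length. At HoxC length they were 7989 of 18814, and at HoxD length 8790 of 21952. The tiles are not matched for gene content.

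**Figure D2:**
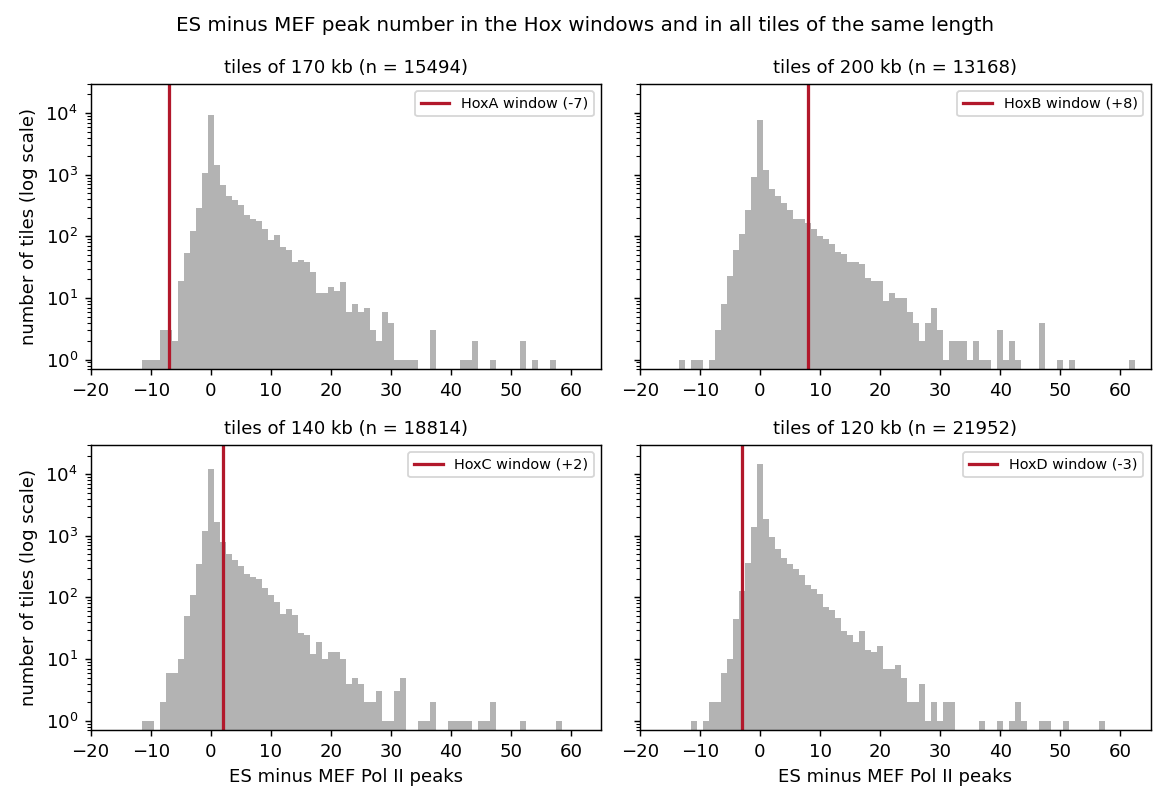
Histograms of ES minus MEF Pol II peaks (x axis) over all tiles of the same length as each window, with the number of tiles on a log scale (y axis); the red line marks the window. HoxA at -7 and HoxD at -3 lie on the sparse MEF-rich side, and HoxB at 8 and HoxC at 2 lie within the long ES-rich side.

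In HoxA, MEF Pol II was called from near the low-coordinate edge to the middle of the window and beyond. The 8 peaks spanned 96.5 kb. The authors' score, whose scale is not stated, was used only to rank peaks within a list. The highest-scored MEF peak lay at chr6:52162836-52163820 with a score of 479.75, rank 805 of 13306, so that 94.0% of MEF peaks scored the same or lower. It was 985 bp wide, and its middle was 63.3 kb from the low-coordinate edge. The next by score was chr6:52195384-52196802 (score 203.79, 68.1% at or below, 1419 bp). The peak at chr6:52107795-52109950 followed closely (198.09, 67.0%) and was the widest MEF peak of the 4 windows, at 2156 bp. The peak at chr6:52190145-52191004 scored 89.09, with 33.0% of the list at or below it. Of the 8 peaks, 5 scored below the list median of 131.55, which by construction splits the whole list evenly. The top 25% of MEF scores held 1 of the 8. The weakest, chr6:52182510-52184276, had a score of 55.20 near the list minimum of 50 and was nevertheless 1767 bp wide. From the fourth to the eighth peak, neighbours were 4379 to 6308 bp apart, while gaps of 12399, 39566 and 12092 bp separated the peaks nearer the low-coordinate edge. No MEF peak was called in the last 65.7 kb of the window, from 52204258 to its end, on the Hoxa13 and Evx1 side.

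ES cells had a single Pol II peak in the HoxA window, and it was the only one of the 4 windows also called in MEFs. It lay at chr6:52108093-52109867, 8.98 kb from the low-coordinate edge, and was 1775 bp wide. Its whole length lay within the widest MEF peak, 82.3% of which it covered. Its score of 200.75 put it at 66.8% of the ES list, next to 67.0% for the MEF peak in its own list. The lists differ in length, so these 2 ranks do not show a change. The other 160 kb of the window (94.2%) carried no ES peak.

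The values of HoxA depended on where the window ends. With the windows narrowed by 10 kb on each side, the shared place was lost, and ES cells had 0 peaks in HoxA. Just outside its low-coordinate edge, ES cells had 6 peaks within 50 kb that covered 14431 bp, while MEFs had none. The nearest was at chr6:52068682-52070572, 29.4 kb outside the edge, with a score of 171.00 (61.9% at or below). Among the others were chr6:52052556-52057231, 4676 bp wide with a score of 724.58 (91.1%), and chr6:52065230-52068517, 3288 bp wide (528.17, 87.0%). With all windows widened by 50 kb on each side, HoxA held 7 ES and 8 MEF peaks. In HoxB, 1 weak ES peak lay within 50 kb of the edges (score 52.33, 2.77% at or below), and in HoxC and HoxD no peak of either list did.

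In HoxD, Pol II was called in MEFs only, in 3 peaks on the Hoxd13 side of the window. The first, chr2:74505083-74506198, scored 444.27 (rank 990, 92.6% at or below) and was 1116 bp wide. The second, chr2:74509717-74511261, scored 133.74 (50.8%) and was 1545 bp wide, 3518 bp from the first. The third, chr2:74524454-74525580, scored 82.97 (29.5%) and was 1127 bp wide. Rank thus declined from the edge inward, and the 3 peaks together spanned 20.5 kb. The remaining 84.4 kb toward Hoxd1 had no peak in either cell type. The ES peaks nearest to the window were 72.4 kb and 53.5 kb outside it, and MEF peaks at 72.5 kb and 53.5 kb overlapped both. Pol II was therefore called in ES cells on either side of HoxD but not within it.

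HoxB was the main Hox site of ES cell Pol II. All 9 ES peaks lay between 96111932 and 96137659 on chromosome 11, and they covered 47.4% of these 25.7 kb. The dominant peak, chr11:96130091-96134155, scored 2096.18 (rank 703 of 32345, 97.8% at or below). It was also the widest of the 26 Hox peaks, at 4065 bp, and made up 33.4% of the bases covered in the stretch. It was the 1 Hox peak of 4 kb or more, a width reached by 4.39% of ES peaks. Among the 2971 ES peaks of chromosome 11 it ranked 90 by score, and among the 23612 ES peaks without a MEF peak it ranked 254.

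The peaks around the dominant HoxB peak had lower ranks. Its neighbour on the Hoxb1 side, chr11:96134232-96135741, began 76 bp after it and scored 257.83 (73.4%). Next to that, chr11:96136598-96137659 scored 110.61 (46.2%). On the Hoxb13 side, chr11:96128642-96129982 ended 108 bp before the dominant peak and scored 161.71 (59.9%). Farther out, chr11:96118899-96120416 was 1518 bp wide and scored 103.21 (43.1%), and the outermost peak, chr11:96111932-96112830, scored 217.10 (69.0%). The remaining 3 peaks were 487 to 694 bp wide, with scores of 52.66, 58.02 and 75.60. Only the dominant peak reached the top 25% of ES scores. Joining peaks at most 1 kb apart left 4 stretches, of which the one around the dominant peak was 9.02 kb long and held 4 peaks. Such crowding was not rare in this list: 5.11% of all ES peaks opened a stretch of 25728 bp with at least 9 peaks.

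MEFs had 1 peak in HoxB, and it lay apart from the ES peaks. It was at chr11:96153499-96153994, 496 bp wide, with a score of 69.62 (20.8% at or below), and 15839 bp from the nearest ES peak on the Hoxb1 side. The 102 kb of the window beyond the last ES peak held this peak alone. The first 71.9 kb on the Hoxb13 side held no peak of either list.

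In HoxC, all calls of both lists were of low or middle rank. The ES peaks lay at chr15:102750733-102751414 (score 86.63, 34.7% at or below), chr15:102761777-102762447 (136.19, 54.0%) and chr15:102770166-102771065 (93.65, 38.8%). All 3 lay within a span of 20.3 kb on the Hoxc13 side, which began 10.7 kb from the window's edge. They were 671 to 900 bp wide, narrower than the ES median of 955 bp. The MEF peak lay at chr15:102828282-102829005, on the Hoxc4 side of the window's midpoint, 57216 bp from the nearest ES peak. It was 724 bp wide and scored 103.00 (39.7%). The calls of the 2 cell types thus lay on opposite sides of the window's midpoint. None of the 3 ES peaks was kept when the ES list was cut to its 13306 highest scores. With scores at or above the median of each list, 1 ES and 0 MEF peaks were left in HoxC.

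One place was shared between the cell types. Of 13 ES peaks in the clusters, 1 was also called in MEFs (7.69%, exact Clopper-Pearson 95% interval 0.195 to 36.0%), against 27.0% of all ES peaks. Likewise, 1 of the 13 in MEFs was also called in ES cells (7.69%, 0.195 to 36.0%), against 62.1% of all MEF peaks. The intervals cover counting error over peaks only, and neighbouring peaks of a cluster are not independent. The other 12 MEF peaks lay 12482 to 106885 bp from the nearest ES peak. Allowing peaks within 1 kb left both Hox shares at 7.69%, while the shares over the whole lists were then 31.6% and 64.3%. With the ES list cut to equal length, the shared place was 1 of 5 ES peaks (20%, against 44.2% of the list) and 1 of 13 MEF peaks (7.69%, against 44.1%). Among peaks at or above the median score it was 1 of 6 in ES cells (16.7%, against 28.6%) and 1 of 5 in MEFs (20%, against 67.5%). For ES cells the list share of 27.0% lies within the interval of the Hox share, and for MEFs the 62.1% lies above it. This is not a test, because neighbouring peaks of 1 library are not replicates. Among MEF peaks without an ES peak, of which there were 5041, the leading peaks of HoxA and HoxD ranked 69 and 84 by score.

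In the flanks, each as long as its window, 9 of the 10 MEF peaks were also called in ES cells (90.0%, against 62.1% of the list). Of the 33 ES peaks there, 8 were also called in MEFs (24.2%), near the 27.0% of the list. Of the 10 MEF peaks, 5 lay in the low-coordinate flank of HoxB. The 2 in that of HoxA both overlapped the same ES peak, chr6:51962313-51963690, so 1 place counts 2 times. Here too neighbouring peaks are not independent. ES peaks covered 13.3% of the low-coordinate flank of HoxA and 11.7% of that of HoxB, in each case more than of the window beside it. MEF peaks covered 0.782% and 2.97% of these flanks. For MEFs, HoxA (5.78%) and HoxD (3.16%) were covered more than both of their flanks, while HoxB (0.248%) was covered less than its low-coordinate flank. On the high-coordinate side of HoxA neither list had a peak in 170 kb, and on the low-coordinate side of HoxC neither had one in 140 kb.

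**Figure D3:**
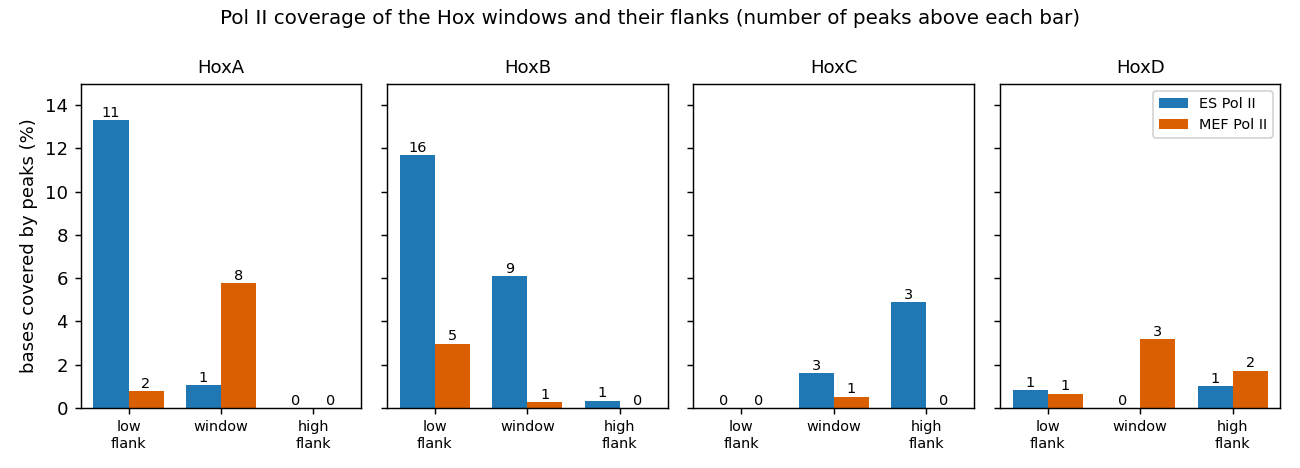
Percentage of bases covered by Pol II peaks (y axis) in each Hox window and in the flanks of equal length on its low- and high-coordinate side, for ES cells (blue) and MEFs (orange), with the number of peaks above each bar; each bar is 1 library. ES coverage drops from 13.3% in the low flank of HoxA to 1.04% in the window, where MEF coverage goes from 0.782% to 5.78%.

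By score the Hox peaks spread over most of the range of their lists. The median ES Hox peak stood at 46.2% of its list by score, with a range from 3.37% to 97.8%, and the median MEF Hox peak at 33.0%, with a range from 7.22% to 94.0%. With the ES list cut to equal length, the median of the 5 ES peaks kept was 24.5%. The top 25% of scores held 1 of 13 ES and 2 of 13 MEF Hox peaks, against 25.0% of each whole list by construction. Median widths were 900 bp for ES Hox peaks against 955 bp for the list, and 1116 bp against 1087 bp for MEFs. The 3 Hox peaks of highest rank were the dominant HoxB peak of ES cells and the leading HoxA and HoxD peaks of MEFs. Of these, only the HoxB peak was also wide for its list, at 95.7% by width, while the HoxA and HoxD peaks stood at 43.3% and 51.6%.

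**Figure D4:**
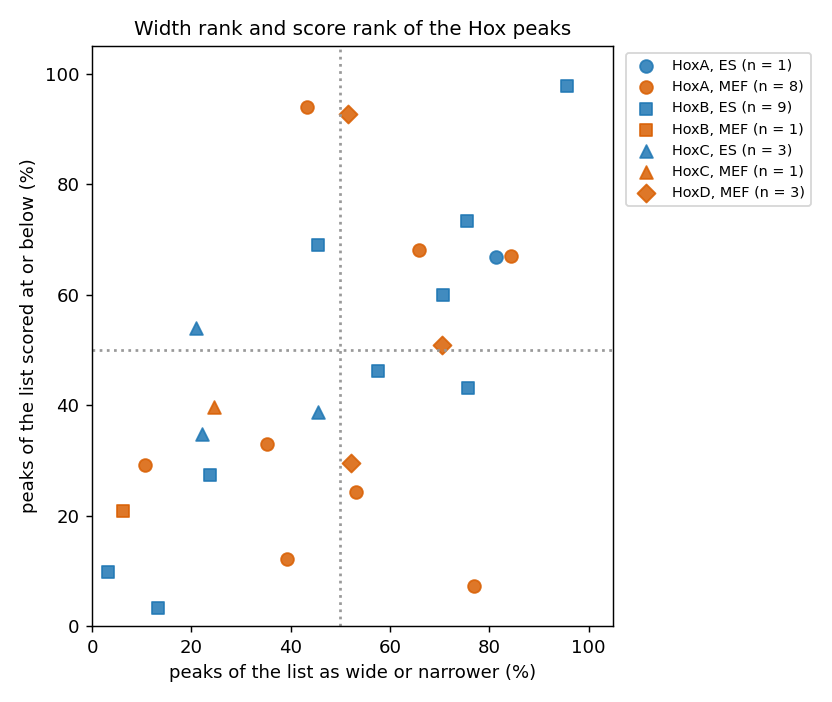
Each point is 1 Hox peak, placed by the percentage of peaks of its list that are as narrow or narrower (x axis) and that score the same or lower (y axis); shapes give the window and colours the cell type, and dotted lines mark 50%. The dominant HoxB peak of ES cells is alone in the upper right corner, and the leading MEF peaks of HoxA and HoxD sit at the top near the middle of the width axis.

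Spacing was measured from each Hox peak to the nearest other peak of its list, inside or outside the window. Another ES peak lay within 1 kb of 7 of the 13 ES Hox peaks, all 7 in HoxB, against 46.6% of all ES peaks. No MEF Hox peak had another within 1 kb, against 7.96% of all MEF peaks. The median distance was 0.856 kb for ES Hox peaks (1.29 kb in the list) and 6.31 kb for MEF Hox peaks (22.3 kb in the list). In 10 kb bins, 7 of 63 bins held an ES peak, 12 a MEF peak and 1 both, and 45 held neither. Pol III was not called in any window: none of the 6 Pol III lists, of 13 to 317 peaks, had a peak there, and the nearest Pol III peak was 319 kb from a window (HoxB). Lists of this length leave most tiles of the genome without a Pol III peak, so the absence is not particular to the Hox clusters.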

How the data were processed

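Peak lists of 8 ChIP-seq libraries were used, and the 2 inputs were not analysed here. CASAVA 1.8, Bowtie 1.12, SAMtools, HOMER and the build mm9 are named in the submitters' processing notes. The Pol II peaks are named as MACS peaks in the deposited lists. The sources used here name neither calling thresholds nor controls. The authors' score in column 5 has no stated scale and was used only for ranks within a list. Starts were read as 0-based and are printed 1-based.

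Peaks were assigned to windows and to each other at an overlap of 1 bp. Covered bases were cut at window edges. Tiles began at the first base of each of 19 autosomes and X and ended at the last base covered by a Pol II list. No test across libraries was possible with 1 library per group. The members, windows and comparisons were chosen with earlier results of these data known. Named peaks are all peaks of a window and list with 6 or fewer, otherwise the 4 highest-scored and 2 widest. The shared place, peak-free stretches the weakest peaks and the outer neighbour of the dominant HoxB peak were also named, the last 2 kinds after their values were seen. Alternatives were an ES list of equal length, score thresholds, window edges, joining of peaks and other overlap rules; the half-tile shift, the tiles with a peak, tiles at equal list length and shares in narrower windows were added after seeing the data. Python 3.11.15 with pandas 2.3.3 and scipy 1.17.1 was used, and the overlap code was tested on simulated data.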

Additional observations from a re-analysis of the deposited data

How the results depend on the processing

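The excess of MEF peaks in HoxA and HoxD kept its direction in peak number under all alternatives run, and so did the excess of ES peaks in HoxB. For HoxD no setting could turn it, because the window had 0 ES peaks and no peak of either list lay within 50 kb of its edges. Cutting the ES list could only remove ES peaks, so it could not turn HoxA either. Joining could not, because no peak of HoxA or HoxD had another of its list within 1 kb. Sizes changed with the threshold. With peaks below the median score of their list removed, ES minus MEF peaks were -2 in HoxA, 4 in HoxB and 1 in HoxC, with covered bases of -2785 bp in HoxA and 671 bp in HoxC. In the top 25% of scores they were -1, 1, 0 and -1 from HoxA to HoxD, with -985, 4065, 0 and -1116 bp. With the ES list cut to 13306 peaks, HoxB gave 3 peaks and 7319 bp, HoxC turned to -1 and -724 bp, and the median ES score rank was 24.5%. With windows widened by 50 kb, HoxA gave -1 peaks and turned to 6387 bp. Joining peaks at most 1 kb apart gave 3 in HoxB. Both shares of peaks called in the other cell type were 0% in the top 25% of scores, where 1 ES and 2 MEF Hox peaks were left and 24.9% of ES and 59.5% of MEF peaks of the lists were shared. They were also 0% with windows narrowed by 10 kb, which leaves out the shared place. Narrower windows left the differences between cell types within 1.5 times, although ES cells then had 0 peaks in HoxA. No Hox peak crossed a window edge, so counting whole peaks could not change the covered bases. An overlap of 50% of the shorter peak left both shares at 7.69%. Over these comparisons, 41 alternative values stayed within 1.5 times or within the interval of the share, 22 moved further and 3 turned direction. The 41 include the whole-peak values and the MEF score rank with the ES list cut, which those settings could not change. They also include settings that had no peaks to act on. Widening met no peak of either list at HoxC or HoxD and no MEF peak at any window, so the MEF score rank stayed too. Joining met no peaks at most 1 kb apart in HoxA, HoxC and HoxD. The ES cut had 0 ES peaks to remove in HoxD. The interval of the share is wide, at 0.195 to 36.0%, so staying within it says little. Shifting the tiles by 50% of their length gave 0.0581%, 7.04%, 18.2% and 0.816% for the 4 differences. No paired analysis was possible because each group has 1 library. Depth is unknown, so peaks near the calling threshold cannot be told from missing calls.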

Other observations

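Beyond the HoxC window on the Hoxc4 side, ES Pol II had a pair of peaks in the flank, at chr15:103013179-103015801 (score 314.36, 78.0% at or below) and chr15:103015879-103019535 (430.71, 83.7%). Both ranked above every ES peak of the HoxC window, and neither was called in MEFs. In the low-coordinate flank of HoxA, the ES peak at chr6:52025875-52030107 was 4233 bp wide, scored 1373.65 (95.9%) and had no MEF peak. These 3 peaks were chosen after their values were seen, and their distance from the windows leaves them outside the Hox counts.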
